A study of Mus musculus with 6 samples.

Results

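The 10 genes described here encode the carriers that take amino acids back from the filtrate in the proximal tubule: Slc6a18, Slc6a19, Slc6a20b, Slc3a1, Slc7a9, Slc7a13 and Slc1a1 at the apical membrane, and Slc7a7, Slc7a8 and Slc3a2 at the basolateral membrane. They were chosen by name. All 16 probe sets whose platform annotation gives 1 of these symbols alone were taken, out of 45037 probe sets in all, and every gene had at least 1. The series asked whether the soluble intracellular domain (ICD) of megalin, the endocytic receptor of this segment, affects proximal tubular function in the living mouse. Kidney RNA was hybridised to 1 Affymetrix array per animal, for 3 ICD mice and 3 wild type littermates. The ICD mice carried the megalin ICD allele in heterozygous form and were titled TG. The promoter that drives the ICD and the strain are not given in the sources used here. All 6 mice were male and 10 weeks old, and no treatment is named for either group.

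Filtered amino acids enter the tubule cell through sodium-coupled carriers and exchangers of the brush border, and leave it through exchangers of the basolateral membrane. Several carriers are pairs of a light chain, which moves the substrate, and a heavy chain, which takes the pair to its membrane. The rBAT protein, product of Slc3a1, is the heavy chain of the apical side, and 4F2hc, product of Slc3a2, that of the basolateral side. In rodents the early part of the tubule holds most of the bulk uptake through Slc6a19, Slc7a9, Slc7a7 and Slc7a8, whereas Slc6a18, Slc7a13 and Slc1a1 are placed in the later part. Slc3a1, Slc3a2 and Slc6a20b were not assigned to a part of the tubule.

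Values are log2 RMA values, as deposited. Differences are ICD minus wild type on this log2 scale with limma 95% confidence intervals, and p-values are adjusted by the Benjamini-Hochberg method over all 45037 probe sets. A brightness can be compared between arrays for 1 probe set, but not between probe sets, so no gene is ranked against another by level. The arrays had medians between 6.62 and 6.66 and pairwise correlations between 0.9949 and 0.9966. Defining proximal tubule genes were bright on every array (mean level of the 7 measured markers 13.57 to 13.64 in ICD and 13.50 to 13.62 in wild type kidneys), as the tissue label calls for. A single array, wild type 3, stood apart for genes of the early proximal tubule. There the mean of 6 early markers, each centred on its mean over the arrays, was -1.31, against 0.10 to 0.44 elsewhere. Without Slc5a12, which carried much of this value, the mean was -0.62 there and -0.066 to 0.24 elsewhere. Transporter results that rest on that array are therefore also given without it.

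None of the 16 transporter probe sets passed the test between ICD and wild type kidneys (limma, threshold adjusted p under 0.05), and 0.0% of all probe sets did. At unadjusted limma p under 0.05 there were 2 transporter probe sets, both higher in ICD kidneys, where 3.61% of all probe sets were higher and 2.26% lower at that limit. They were 1 of the 2 probe sets of Slc6a19 and 1 of the 2 probe sets of Slc7a13. The same 2 were the only transporter probe sets whose ICD and wild type arrays did not overlap, and 10.5% of all probe sets had such a gap. By sign alone 13 of 16 were higher in ICD kidneys (47.2% of all probe sets), with a median difference of 0.092, against a median of -0.0061 over all probe sets. Without wild type 3 it was 11 of 16 (48.4% of all), with a median of 0.027, while the same 2 probe sets had an unadjusted p under 0.05 (3.41% of all were higher at that limit) and 0 passed after adjustment (0.00222% of all). Wild type 3 was the lowest array for 10 of the 16 probe sets, as it was for 16.8% of all probe sets, and ICD 2 was the highest for 7, as it was for 19.7%. Probe sets of 1 gene, and carriers of 1 cell, are not independent of each other.

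**Figure D1:**
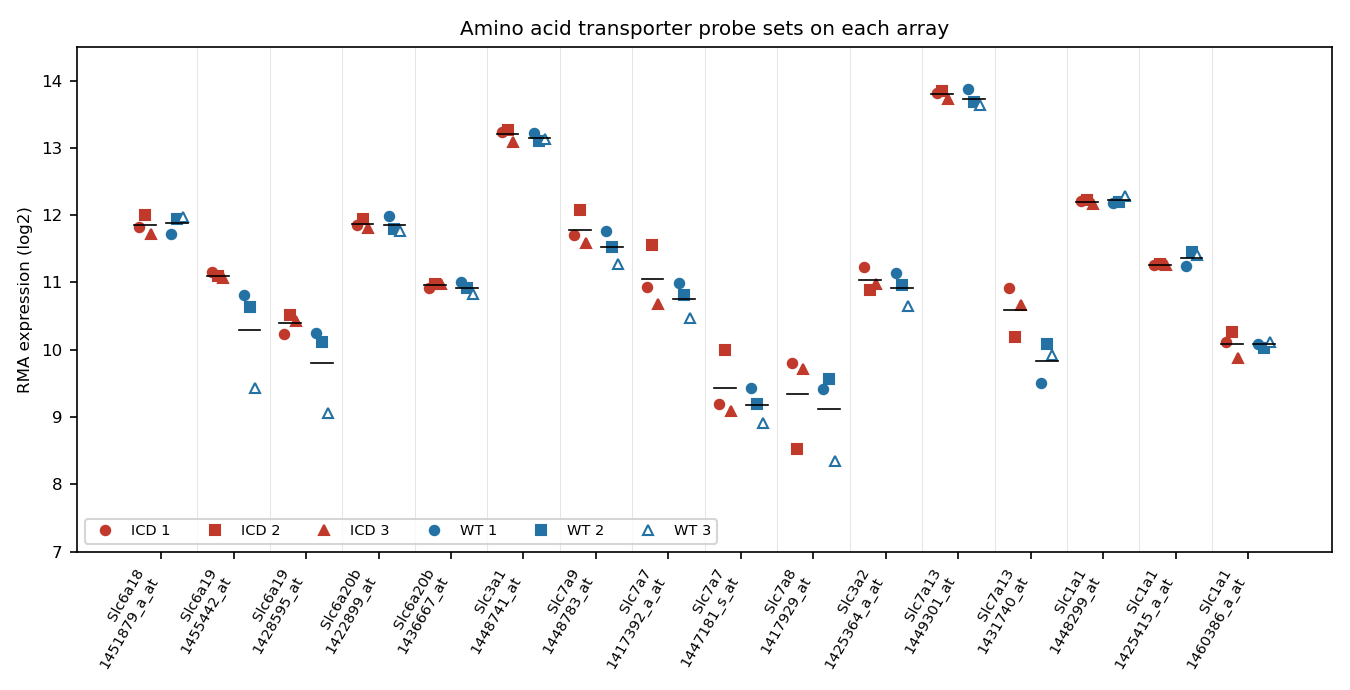
Values (log2) of the 16 transporter probe sets on each array, ICD arrays in red to the left and wild type arrays in blue to the right, with bars at the group means. Open triangles are wild type 3, which lies lowest for 10 of the 16 probe sets and at 9.43 for Slc6a19 1455442_at, where the 3 ICD arrays lie between 11.07 and 11.15.

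Promoter windows of the members were read from RefSeq (GRCm38.p6), because all 4 early transporters were at their lowest on wild type 3. Each ran from 250 bases before to 50 bases after a start site. The outermost annotated start of Slc6a19, Slc7a7, Slc7a9 and Slc3a2 had no window, so the Slc6a19 window lies inside the gene. Entries were found for 8 of the 10 genes, all but Slc6a18 and Slc7a13, with 13 windows in all. They were searched on both strands for CAAAGTCCA, a binding motif of HNF4, a factor that acts in proximal tubule cells. The letters were chosen after the values were seen. They were found in the window of Slc3a1 alone among the members, and in 0.475% of the 32851 windows of all genes.

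Shown are the window of Slc6a19 (chr13:73692587-73692886, minus strand), which held no match, and that of Slc3a1 (chr17:85028097-85028396, plus strand). Each is written 5′ to 3′ on the gene's strand, with the match in capitals.
Slc6a19: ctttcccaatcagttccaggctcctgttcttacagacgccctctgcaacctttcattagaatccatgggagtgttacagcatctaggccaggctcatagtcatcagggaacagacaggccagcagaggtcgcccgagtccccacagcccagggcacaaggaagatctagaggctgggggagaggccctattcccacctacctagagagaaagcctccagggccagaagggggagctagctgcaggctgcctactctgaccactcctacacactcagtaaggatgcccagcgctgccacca
Slc3a1: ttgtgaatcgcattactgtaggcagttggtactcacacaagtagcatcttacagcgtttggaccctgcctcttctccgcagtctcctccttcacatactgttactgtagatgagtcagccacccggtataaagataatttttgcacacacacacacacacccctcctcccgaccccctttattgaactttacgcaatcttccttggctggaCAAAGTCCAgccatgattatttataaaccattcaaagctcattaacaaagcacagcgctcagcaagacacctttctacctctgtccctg

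Slc6a19 encodes B0AT1, the sodium-coupled carrier for neutral amino acids whose loss causes Hartnup disorder in humans. Its brighter probe set 1455442_at read 11.15, 11.09 and 11.07 in ICD kidneys, against 10.81, 10.63 and 9.43 in wild type kidneys. The ICD arrays lay close together and above every wild type array, and the spread of the wild type group came mostly from wild type 3. The means were 11.10 ± 0.045 in ICD and 10.29 ± 0.75 in wild type kidneys (SD, n = 3 each). They differed by 0.81 (interval 0.11 to 1.52, limma adjusted p = 0.809), or 1.76-fold on the linear scale. Without wild type 3 the difference was 0.38 (interval 0.18 to 0.58, limma adjusted p = 0.694), and the remaining groups still did not overlap, which held for 19.5% of all probe sets on these 5 arrays.

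The dimmer Slc6a19 probe set 1428595_at read 10.24, 10.52 and 10.42 in ICD kidneys, against 10.25, 10.11 and 9.06 in wild type kidneys. Here ICD 1 lay within the wild type values, and wild type 3 was again far below the rest. The difference was 0.59 (interval -0.039 to 1.21, limma adjusted p = 0.867) and 0.21 without wild type 3 (interval -0.030 to 0.45). On wild type 3 the 2 probe sets lay 1.30 and 1.12 below the mean of the other wild type arrays. Of all probe sets 0.178% lay 1 or more below in that way, among them 3 of the 16 transporter probe sets, the third being that of Slc7a8. In whole kidney RNA, fewer cells of a type and less RNA per cell cannot be told apart.

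Slc6a18 lies next to Slc6a19 in the RefSeq annotation, with 0 protein-coding genes between them, and encodes B0AT3 (also named XT2), an apical carrier for glycine and other small neutral amino acids. Its probe set 1451879_a_at read 11.83, 12.01 and 11.72 in ICD kidneys, against 11.72, 11.94 and 11.98 in wild type kidneys. The groups covered the same range, and wild type 3 held the highest wild type value, unlike at the neighbouring gene. The difference was -0.026 (interval -0.26 to 0.21, limma adjusted p = 0.996). Slc6a20b, a member of the same family related to the imino acid carrier, had 2 probe sets. Those differed by 0.025 (interval -0.17 to 0.22, 1422899_at) and 0.035 (interval -0.13 to 0.20, 1436667_at), with ICD values between 11.81 and 11.95 and wild type values between 11.76 and 11.99 for 1422899_at.

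Slc3a1 and Slc7a9 encode rBAT and b0,+AT, the apical pair that takes up cystine and dibasic amino acids and is lost in human cystinuria. The Slc3a1 probe set 1448741_at read 13.23, 13.27 and 13.09 in ICD kidneys, against 13.22, 13.11 and 13.13 in wild type kidneys. The groups overlapped, and the difference was 0.044 (interval -0.13 to 0.22, limma adjusted p = 0.985). The Slc7a9 probe set 1448783_at read 11.70, 12.07 and 11.58 in ICD kidneys, against 11.77, 11.53 and 11.28 in wild type kidneys. The heavy chain was thus level over all 6 arrays (range 0.19), whereas its light chain spanned 0.79, with ICD 2 at the top and wild type 3 at the bottom. The Slc7a9 difference was 0.26 (interval -0.092 to 0.61, limma adjusted p = 0.921), 0.14 without wild type 3 and 0.11 without ICD 2.

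Slc7a13 encodes AGT1, a further light chain of rBAT in the late proximal tubule that carries cystine, aspartate and glutamate in the mouse. Its 2 probe sets did not give the same difference. The dimmer one, 1431740_at, read 10.92, 10.19 and 10.67 in ICD kidneys, against 9.51, 10.08 and 9.92 in wild type kidneys. All 3 ICD arrays lay above the wild type arrays, with ICD 2 and wild type 2 closest to each other. The difference was 0.76 ± 0.20 (SE, interval 0.30 to 1.21, limma adjusted p = 0.700), the second largest of the 16, and 0.80 without wild type 3. The brighter one, 1449301_at, read 13.82, 13.84 and 13.73 in ICD kidneys, against 13.87, 13.68 and 13.64 in wild type kidneys. These values overlapped, at a difference of 0.069 (interval -0.12 to 0.26, limma adjusted p = 0.979). The interval of the dimmer probe set begins above the upper end of that of the brighter one, and the difference between them was not tested. The brighter one was among the brightest probe sets of the arrays (percentile 99.7 of mean level).

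Slc1a1 encodes EAAT3, the sodium-coupled carrier for glutamate and aspartate of the apical membrane. Its brightest probe set 1448299_at read 12.21, 12.22 and 12.16 in ICD kidneys, against 12.18, 12.20 and 12.28 in wild type kidneys. That range of 0.12 was the narrowest of the 16 probe sets, and the difference was -0.023 (interval -0.17 to 0.13, limma adjusted p = 0.993). The other 2 probe sets differed by -0.10 (interval -0.28 to 0.071, 1425415_a_at) and 0.0082 (interval -0.23 to 0.24, 1460386_a_at).

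On the basolateral side, Slc7a7 encodes y+LAT1, which exports dibasic amino acids in exchange for neutral ones and sodium and is lost in human lysinuric protein intolerance. Its probe set 1417392_a_at read 10.93, 11.55 and 10.68 in ICD kidneys, against 10.99, 10.81 and 10.47 in wild type kidneys. ICD 2 stood above the other 5 arrays, by 0.74 over the mean of the other ICD arrays, and wild type 3 was lowest. The second probe set, 1447181_s_at, showed the same order at its ends, with 9.20, 10.00 and 9.09 in ICD kidneys, against 9.43, 9.19 and 8.91 in wild type kidneys. The differences were 0.29 (interval -0.20 to 0.79) and 0.25 (interval -0.28 to 0.78), both at a limma adjusted p of 0.946 or more, 0.15 and 0.12 without wild type 3, and 0.046 and -0.029 without ICD 2.

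Slc7a8 encodes LAT2, an exchanger of neutral amino acids. Its only probe set, 1417929_at, read 9.81, 8.52 and 9.71 in ICD kidneys, against 9.42, 9.57 and 8.35 in wild type kidneys. In each group 1 array was low. ICD 2 lay 1.25 below the mean of the other ICD arrays, and wild type 3 lay 1.15 below that of the other wild type arrays. Of all probe sets 0.091% lay 1 or more below in that way on ICD 2, and 0.178% on wild type 3. The difference of 0.23 had the widest interval of the 16 probe sets (-0.68 to 1.14, limma adjusted p = 0.985). It was -0.15 without wild type 3 and 0.65 without ICD 2. On ICD 2, Slc7a8 was therefore low while Slc7a7, the other light chain of that membrane, was at its highest. Slc3a2, the heavy chain of both, read 11.23, 10.89 and 10.98 in ICD kidneys, against 11.14, 10.96 and 10.65 in wild type kidneys at 1425364_a_at. Its difference was 0.12 (interval -0.19 to 0.42, limma adjusted p = 0.979) and -0.017 without wild type 3.

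**Figure D2:**
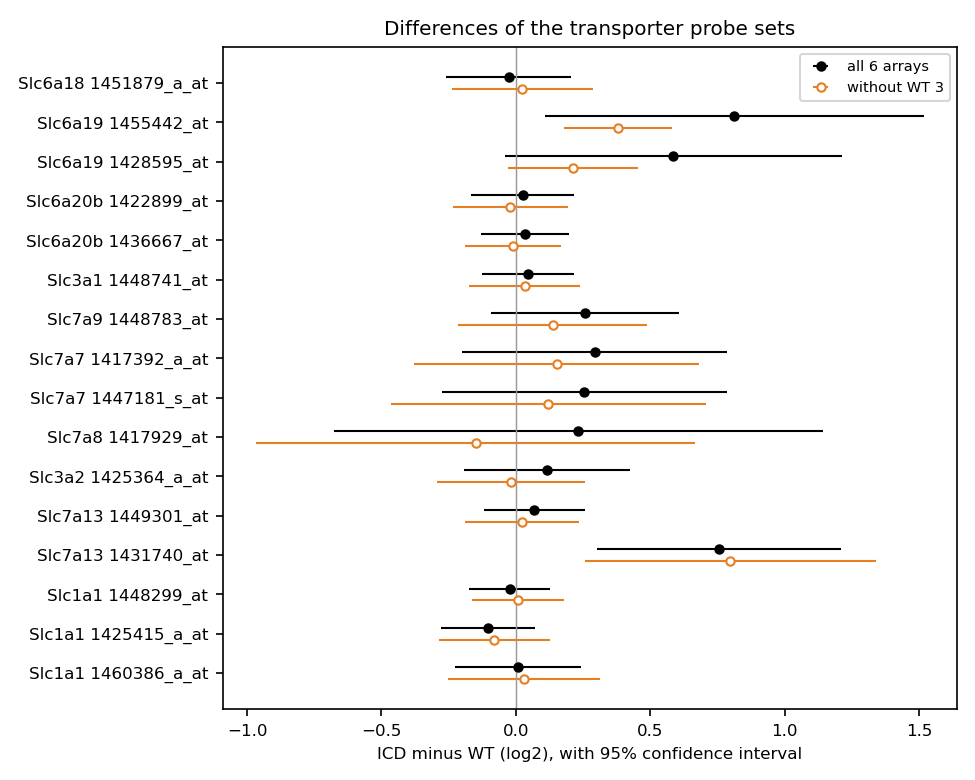
Difference between ICD and wild type kidneys (log2, horizontal axis) for each transporter probe set, with 95% confidence intervals from limma, for all 6 arrays (filled) and without wild type 3 (open). The interval lies above 0 for Slc6a19 1455442_at and Slc7a13 1431740_at alone, and the Slc6a19 difference is 0.81 with all arrays and 0.38 without wild type 3.

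The genes of the 2 membranes were then set against each other, with the brightest probe set of each gene centred on its mean over the 6 arrays. The mean of the 7 apical genes minus that of the 3 basolateral genes was -0.20, 0.23 and -0.097 in ICD kidneys, against -0.10, -0.13 and 0.30 in wild type kidneys. The groups overlapped, with ICD 2 and wild type 3 the high arrays, those on which Slc7a8 was low. The means were -0.024 ± 0.22 in ICD and 0.024 ± 0.24 in wild type kidneys (SD, n = 3 each), a difference of -0.048, and 0.089 without wild type 3. By sign, 5 of 7 apical and 3 of 3 basolateral genes were higher in ICD kidneys with all arrays, and 6 of 7 and 1 of 3 without wild type 3.

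The early and late parts of the tubule differed more in how their genes varied between animals. The mean of the 3 late genes minus that of the 4 early genes was -0.27, -0.10 and -0.21 in ICD kidneys, against -0.15, -0.021 and 0.76 in wild type kidneys. Wild type 3 stood far above the other 5 arrays, which overlapped between the groups. The means were -0.20 ± 0.084 in ICD and 0.20 ± 0.49 in wild type kidneys (SD, n = 3 each). Their difference was -0.39 with all arrays, -0.11 without wild type 3 and -0.25 with all probe sets of a gene averaged. No test was made of either contrast, since the genes were chosen with results of these arrays known.

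At the brightest probe sets the wide spread lay in the early genes. Their mean centred level was 0.28, 0.18 and 0.14 in ICD kidneys, against 0.13, 0.015 and -0.74 in wild type kidneys. This mean joined genes that did not move together. On ICD 2 Slc7a8 lay 1.25 below the mean of the other ICD arrays, and Slc7a7 and Slc7a9 lay above it (0.74 and 0.43). Slc6a19 lay 0.020 below it. On wild type 3 Slc6a19 and Slc7a8 lay furthest below the other wild type arrays (1.30 and 1.15), and Slc7a7 and Slc7a9 less far (0.43 and 0.36). The mean of the late genes stayed between -0.077 and 0.079 on the ICD arrays and between -0.024 and 0.021 on the wild type arrays. It too joined genes that moved apart. On wild type 3 Slc6a18 lay 0.15 above and Slc7a13 0.14 below the other wild type arrays. Over the 6 arrays Slc6a18 spanned 0.29, Slc7a13 0.235 and Slc1a1 0.12 at these probe sets. Differences of the 4 early genes were 0.23 to 0.81 with all arrays and -0.15 to 0.38 without wild type 3. Those of the 3 late genes, taken at their brightest probe sets, were -0.026 to 0.069 and 0.0083 to 0.024. The dimmer Slc7a13 probe set, which spanned 1.41 over the 6 arrays, is not in this count.

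**Figure D3:**
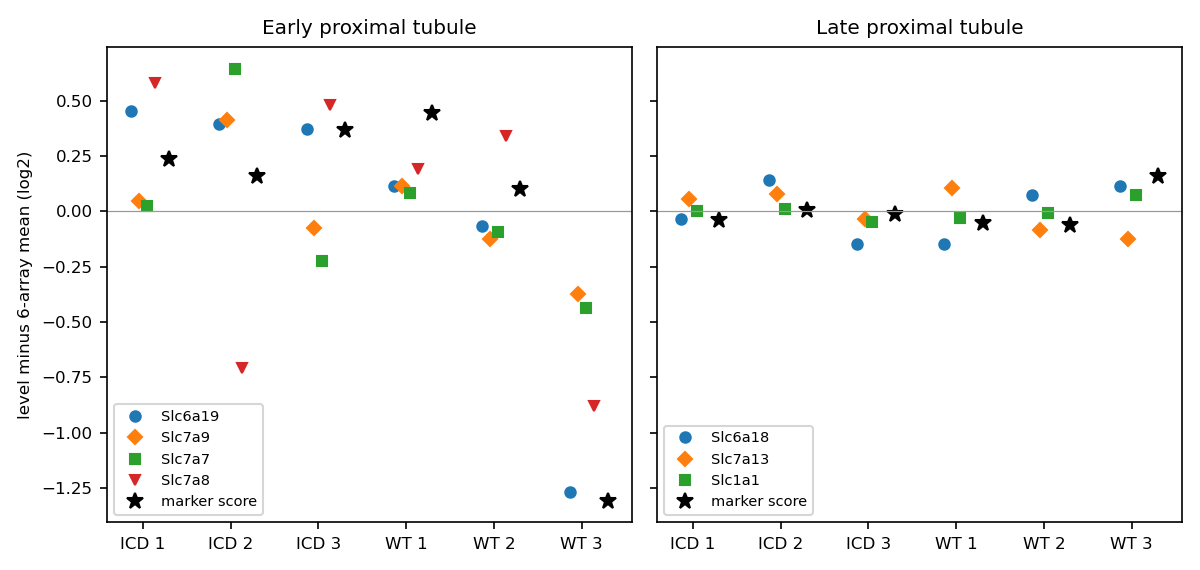
Level of each early (left) and late (right) transporter gene on each array, as the log2 difference from its mean over the 6 arrays, with stars for the mean of the marker genes of that part of the tubule. On wild type 3 the early transporters and the early marker score of -1.31 (-0.62 without Slc5a12) lie low. The mean of the late transporters (0.021) and the late marker score of 0.16 do not. Among the late genes Slc7a13 is still lowest there, at 13.64 against 13.68 to 13.87 elsewhere.

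**Figure D4:**
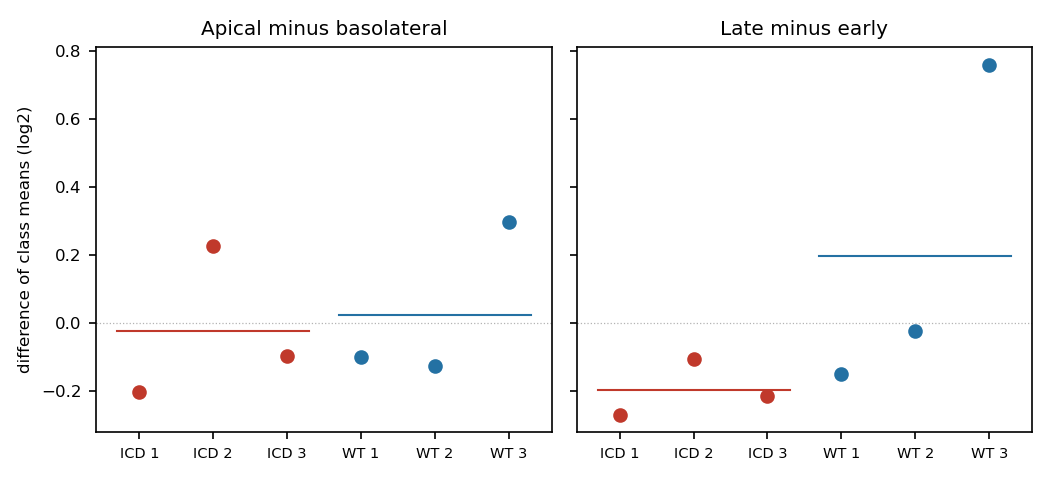
Per array, the apical minus basolateral (left) and late minus early (right) difference of mean centred levels (log2), ICD in red and wild type in blue, with lines at the group means. Wild type 3 has the highest value in both panels (0.30 and 0.76), and ICD 2 is the next highest for apical minus basolateral (0.23).

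Other genes of the early proximal tubule were low beside these transporters on wild type 3. The score of 6 early markers was 0.24, 0.16 and 0.37 in ICD kidneys, against 0.44, 0.10 and -1.31 in wild type kidneys. A single gene, Slc5a12, carried much of the value on wild type 3: without it, a choice made after the values were seen, the other 5 markers scored -0.62 there and -0.066 to 0.24 on the other arrays. Slc5a12, a lactate carrier, read 9.30, 9.27 and 10.47 in ICD kidneys, against 10.35, 9.82 and 4.12 in wild type kidneys. The value of 4.12 lies below the median of all probe sets (6.64), and the other of its 2 probe sets is not shown here. Slc5a2, the glucose carrier of the early segment, read 11.66 to 11.94 in ICD kidneys, against 11.96, 11.29 and 10.40 in wild type kidneys. Gatm, an enzyme of creatine synthesis, read 12.01 to 12.36 in ICD kidneys, against 12.51, 12.15 and 10.93 in wild type kidneys. The smallest gaps were those of Slc34a1, the phosphate carrier (13.92 on wild type 3 and 14.14 to 14.22 elsewhere), Slc2a2, the basolateral glucose carrier (11.33 and 11.67 to 11.93), and Slc4a4, the bicarbonate carrier (12.65 and 12.73 to 13.04). All 6 early markers were higher in ICD kidneys with all arrays (median 0.28) and 4 of 6 without wild type 3 (median 0.046), and 0 of 6 passed the limma test. Slc4a4 alone had an unadjusted p under 0.05.

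The late markers did not share this. Their score was -0.038, 0.0066 and -0.014 in ICD kidneys, against -0.053, -0.063 and 0.16 in wild type kidneys. Of the 7 late markers 2 were higher and 5 lower in ICD kidneys, with a median of -0.035, and 0 passed the limma test, with 0 at unadjusted p under 0.05. Cyp7b1, an oxysterol hydroxylase, differed by -0.15 (-0.076 without wild type 3), Slc22a7, an organic anion carrier, by 0.15, and Slc22a19, another, by 0.023. Slco1a6, an organic anion carrier, differed by -0.13, Slc5a8, a monocarboxylate carrier, by -0.035, Atp11a, a phospholipid flippase, by -0.044, and Cyp2e1, a cytochrome of solvent metabolism, by -0.023.

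Markers of other kidney cells were looked at on the same array, because LAT2, 4F2hc and EAAT3 are also made outside the proximal tubule. On wild type 3 the score of 6 endothelial markers was -0.35, of 6 thick ascending limb markers 0.10 and of 6 principal cell markers 0.15. Over the other arrays these scores ranged from -0.066 to 0.21, from -0.13 to 0.062 and from -0.11 to 0.029. The intercalated cell score was 0.12 on wild type 3 and -0.094 to 0.046 elsewhere, and the podocyte score was -0.29 there, as on wild type 2. The distal tubule, leukocyte and adipose scores of wild type 3 lay within the range of the other arrays. The mean level of the thick limb markers was 11.87 to 12.01 in ICD and 11.97 to 12.10 in wild type kidneys, and that of principal cell markers 9.78 to 9.91 and 9.89 to 10.03. That of the endothelial markers was 8.43 to 8.65 in ICD and 8.11 to 8.67 in wild type kidneys. RMA values have no zero, so no marker can be called absent. The part of these cells in the low transporter values of wild type 3 was not tested.

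Between the groups, the markers of podocytes, the filter cells of the glomerulus, had the most genes at unadjusted limma p under 0.05. All 5 measured were higher in ICD kidneys at that limit, where 1.74% of all genes were higher. The groups did not overlap for any of them, as for 666 of 18193 genes that were higher in this way. After adjustment 0 of the 5 podocyte markers passed (limma adjusted p 0.643 to 0.725). They were Nphs1, Podxl, Wt1, Synpo and Ptpro, named after their values were seen, with differences of 0.24 to 0.52 (median 0.40, and 0.31 without wild type 3). Their score was 0.16, 0.22 and 0.23 in ICD kidneys, against -0.032, -0.29 and -0.29 in wild type kidneys. In the other direction, 1 of 6 thick limb markers, Ptger3 (-0.35), was lower at unadjusted limma p under 0.05. So were 2 of 6 principal cell markers, Avpr2 and Scnn1a (-0.23 and -0.21), where 2.2% of all genes were lower. None of the 3 passed after adjustment. The median differences of these lists were -0.053 (thick limb) and -0.13 (principal cell). The endothelial, distal tubule, intercalated cell, leukocyte and adipose lists had 0 genes at unadjusted limma p under 0.05. The part of any of these cell types in the transporter differences was not tested.

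Profiles most like those of the variable transporters were looked up among 19625 probe sets with 1 gene and a mean at or above the median, by the root mean square distance of centred log2 values over the 6 arrays. The measure describes 6 arrays and, for Slc6a19, rests on wild type 3. Nearest to Slc6a19 were Nepn (distance 0.11), Spp2 (0.13), Slc5a2 (0.16, at probe set 1419166_at), Gm31718 (0.17) and Fmod (0.18). Spp2, a secreted phosphoprotein, read 10.85, 10.56 and 10.93 in ICD kidneys, against 10.42, 10.17 and 9.19 in wild type kidneys. Its low value on wild type 3 follows from the choice by likeness. Nearest to Slc7a7 were Acpp (0.10), Egln3 (0.12), Slc5a9 (0.12), Cldn2 (0.14) and 4632415L05Rik (0.14). Cldn2, a tight junction protein of the proximal tubule, read 10.44, 10.71 and 10.15 in ICD kidneys, against 10.37, 10.34 and 10.06 in wild type kidneys. Its highest value on ICD 2 and lowest on wild type 3 likewise follow from that choice. No profile came as close to Slc7a8, where Armh4 (0.27), Klf12 (0.29), Oasl2 (0.29), Gmfb (0.29) and Cd59a (0.30) were nearest.

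A further 30 carriers of amino acids and peptides gave no call between the groups. By sign 14 were higher and 16 lower in ICD kidneys, with a median difference of -0.010, and 0 of 30 passed the limma test. At unadjusted p under 0.05 there was 1 in each direction, where 1.74% of 18193 genes at their brightest probe set were higher and 2.2% lower. Slc7a12, a relative of Slc7a13, read 6.58, 7.52 and 6.05 in ICD kidneys, against 5.43, 5.92 and 6.24 in wild type kidneys. Those values overlapped, at a difference of 0.85 (interval 0.065 to 1.64, limma adjusted p = 0.837), and 0.45 without ICD 2. Slc7a6, the other y+L light chain, read 6.19, 6.14 and 6.15 in ICD kidneys, against 6.20, 6.60 and 6.37 in wild type kidneys. Its difference was -0.23 (limma adjusted p = 0.851), and -0.13 without wild type 2. Slc7a12 and Slc7a6 had mean levels below the median of all probe sets (6.64), so neither was in the fit of bright probe sets alone.

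The basolateral and related carriers that complete the pathway differed by -0.14 to 0.096, with intervals that all include 0 and some of them wide. Slc38a3, a glutamine carrier, differed by -0.14 (interval -0.60 to 0.32), Slc16a10, the aromatic amino acid carrier TAT1, by 0.030 (interval -0.20 to 0.26), and Slc43a2, the uniporter LAT4, by -0.055 (interval -0.27 to 0.15). Slc7a5, the light chain LAT1, differed by -0.089 (interval -0.46 to 0.28), and Slc6a20a, the imino acid carrier, by 0.096 (interval -0.12 to 0.31). None of the 5 passed the test.

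Genes listed as partners of the carriers or for trafficking differed by -0.15 to 0.072. Of 7 partners and trafficking genes measured, 4 were higher and 3 lower in ICD kidneys, 0 passed the limma test and 0 had an unadjusted p under 0.05. Cltrn encodes collectrin, which brings B0AT1 and B0AT3 to the brush border of the kidney. It read 13.88, 13.78 and 13.93 in ICD kidneys, against 13.77, 13.87 and 13.80 in wild type kidneys. The groups overlapped, and the difference was 0.049 (interval -0.11 to 0.21, limma adjusted p = 0.981). Wild type 3, lowest for Slc6a19, was within the range of the other arrays for Cltrn. Of 4 transcription factors measured 0 passed the limma test, and 1, Ppara, had an unadjusted p under 0.05. Hnf4a, a nuclear receptor of the proximal tubule, differed by -0.083 (interval -0.25 to 0.085). Ppara, the fatty acid sensor, differed by 0.50 (interval 0.11 to 0.89, limma adjusted p = 0.744). It read 10.63, 11.11 and 10.89 in ICD kidneys, against 10.68, 10.41 and 10.05 in wild type kidneys.

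The promoter match of the HNF4 letters begins 39 bases before the start of Slc3a1, a gene whose values were level over the arrays. Slc7a8 and Slc7a9 went opposite ways on ICD 2, where Slc7a9 lay 0.43 above and Slc7a8 1.25 below the mean of the other ICD arrays. Both were below the other wild type arrays on wild type 3, by 0.36 and 1.15, as was Slc6a19, and the windows of these 3 genes held no match. A match describes letters and not a bound factor. Only a single exact string was searched, so a missing match does not show that a site is absent. Any relation between matches and these values was not tested.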

How the data were processed

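The authors deposited log2 expression values for 6 kidney arrays, made with RMA per the submitters' processing notes. This method subtracts background, gives all arrays 1 common distribution and combines the probes of a set. A shift shared by most transcripts is lost in it, and small signals show reduced differences. Its version and the chip definition are not given in the sources used here. The table held 45101 rows, of which 64 control rows were left out. Probe sets were named from the platform annotation when it gave 1 symbol (34945), with 932 giving several and 9160 none, and 0 symbols had to be updated through the RefSeq table of GRCm38.p6. Per the labels, the replicates are separate animals. The number of arrays limits the precision.

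The main test was limma 3.58.1 (R 4.3.3), by lmFit and eBayes with genotype as sole term, 2-sided and checked on simulated data. An exact permutation test of 3 against 3 cannot give a p under 0.1 and was not used. For gene lists and class means each gene is represented by the probe set of highest mean. Named genes were all member probe sets, 9 further genes fixed by name (of which 2 are not reported here), genes of the carrier, partner and transcription factor lists at unadjusted p under 0.05, all markers of the early and late tubule, and the 5 nearest profiles of each member whose brightest probe set spans 1 or more. Nherf1 and Nherf2 were matched as Slc9a3r1 and Slc9a3r2. Markers of the distal tubule, intercalated cells, leukocytes and adipose tissue were listed as well, with median differences of 0.060, -0.041, -0.00052 and 0.37. The members and lists were chosen with earlier results of these data known. The tried alternatives were each array left out, a trended and robust prior, array weights, repeated quantile normalization, median centring, bright probe sets alone, all probe sets of a gene averaged, and the replicate number as a block.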

Additional observations from a re-analysis of the deposited data

How the results depend on the processing

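No transporter probe set passed the test under any of the 12 other settings, where the lowest limma adjusted p was 0.538 (Slc6a19 1455442_at without wild type 1). Over all probe sets 0 to 1 passed without 1 array, and 1 with the trended and robust prior. The class contrasts ranged from -0.17 to 0.089 (apical minus basolateral) and from -0.57 to -0.11 (late minus early) without 1 array. Signs held in every fit for 8 of 16 transporter probe sets, Slc6a19, Slc7a9, Slc3a1 and Slc7a13 among them. Differences that turned sign without some array ranged from -0.11 to 0.040 for Slc6a18, from -0.020 to 0.098 and from -0.011 to 0.079 for Slc6a20b, from -0.029 to 0.42 for Slc7a7 1447181_s_at, from -0.15 to 0.65 for Slc7a8, from -0.017 to 0.23 for Slc3a2, from -0.046 to 0.0083 for Slc1a1 1448299_at and from -0.083 to 0.12 for Slc1a1 1460386_a_at (-0.012 with array weights). Among other named genes they ranged from -0.14 to 0.65 for Gatm, -0.41 to 2.71 for Slc5a12, -0.048 to 0.014 for Cyp2e1, -0.058 to 0.15 for Slc22a19, -0.12 to 0.37 for Slc22a7, -0.11 to 0.049 for Slc5a8, -0.042 to 0.14 for Slc16a10, -0.31 to 0.042 for Slc38a3, -0.12 to 0.0046 for Slc43a2, -0.0055 to 0.16 for Slc6a20a and -0.21 to 0.074 for Slc7a5. The causes were not tested. The labels do not say that equal replicate numbers mark a shared litter or day, and deviations of same-numbered arrays correlated at -0.047 to 0.008. With the replicate number as a block 0 probe sets passed. The contrasts of -0.048 and -0.39 cannot change under such a block in this balanced design, so that setting does not test them.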
